A study of Mus musculus with 8 samples.

Results

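The 10 tubulin isotype genes expressed in mouse myoblasts were examined, 4 encoding alpha-tubulin (Tuba1a, Tuba1b, Tuba1c and Tuba4a) and 6 encoding beta-tubulin (Tubb2a, Tubb2b, Tubb3, Tubb4b, Tubb5 and Tubb6). They were taken by symbol from a table of raw read counts with 42391 gene entries, and all 10 passed the filter on low counts in every comparison. The RNA came from C2C12 cells, an immortalized mouse myoblast line, and from primary myoblasts grown out of mouse hindlimb muscle and freed of most fibroblastic cells by preplating. Each culture received either a non-targeting siRNA (control) or a Septin9 siRNA, which gives 4 groups of 2 replicates and 8 samples. Septin9 is a GTP-binding cytoskeletal protein that binds actin and microtubules, and the comparison asks how its depletion changes expression in myogenic cells.

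The C2C12 groups were labelled WT or Septin9 KD and were lysed 60 h after transfection, the last 12 h in differentiation medium. The siRNA dose in C2C12 was 50 nM, after an initial 5 h at 100 nM. The primary myoblast groups, from mice of 5 weeks, carried the same 2 genotype labels and were lysed 48 h after transfection while in proliferation medium. Polyadenylated RNA was sequenced. The replicates came from 2 independent experiments. The labels do not tie primary cultures to single animals, so spread between animals cannot be read from the p-values. The siRNA comparisons took the samples of a replicate as a pair, so their p-values measure how the differences within pairs vary. Those of the control comparison measure the spread between samples. A single Septin9 siRNA was used, and a knockdown leaves part of the transcript.

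Microtubules are built from dimers of 1 alpha- and 1 beta-tubulin. The isotypes of each family share a nearly identical core and differ mainly in a short acidic tail at the C-terminus, which carries most of the enzymatic modifications of the microtubule surface. During muscle differentiation the microtubule array is rebuilt from a radial network at the centrosome into parallel bundles along the elongating cell. Cells also tune tubulin mRNA to the pool of free dimers, through recognition of the first residues of the nascent tubulin chain by TTC5.

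The coding ends are shown because the tails set the isotypes apart. Each run gives the last 60 coding bases of the gene model in GENCODE on GRCm38, with the stop codon last and the codon before it in capitals. That codon reads as tyrosine (TAT) in Tuba1c, the residue removed and restored in the detyrosination cycle, and as GAG, for glutamate, in Tuba4a.
Tuba1c (chr15:99037950-99038009, plus strand): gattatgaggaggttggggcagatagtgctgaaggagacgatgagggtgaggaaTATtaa
Tuba4a (chr1:75215622-75215681, minus strand): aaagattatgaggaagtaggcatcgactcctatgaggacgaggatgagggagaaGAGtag
Tubb2a (chr13:34074468-34074527, minus strand): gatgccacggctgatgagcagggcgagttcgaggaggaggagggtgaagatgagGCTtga
Tubb2b (chr13:34127471-34127530, minus strand): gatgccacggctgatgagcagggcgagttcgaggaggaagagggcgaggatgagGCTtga
Tubb3 (chr8:123421623-123421682, plus strand): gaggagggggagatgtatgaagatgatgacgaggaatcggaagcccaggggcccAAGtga
Tubb4b (chr2:25222308-25222367, minus strand): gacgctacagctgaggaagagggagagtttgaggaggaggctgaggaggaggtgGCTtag
Tubb5 (chr17:35834982-35835041, minus strand): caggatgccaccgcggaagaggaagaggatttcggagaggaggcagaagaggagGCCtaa

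The coding starts are shown because they encode the stretch read in tubulin mRNA autoregulation, with codons 2 to 4 in capitals. The 4 alpha genes read as the residues Arg-Glu-Cys and the 5 beta genes other than Tubb6, which was not read here, as Arg-Glu-Ile, from differing codons.
Tuba1a: atgCGTGAGTGC
Tuba4a: atgCGCGAGTGC
Tubb2a: atgCGCGAGATC
Tubb2b: atgCGAGAGATC
Tubb4b: atgAGGGAGATC
Tubb5: atgAGGGAAATC

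How far reads can be told apart differs between the isotypes. The coding sequences of Tuba1a and Tuba1b were 98.3% identical, those of Tuba1a and Tuba1c 97.1%, and those of Tubb2a and Tubb2b 96.5%, whereas Tuba4a was 84.7% identical to Tuba1a. Of all 150-base windows of the transcript, 54.7% in Tuba1a, 57.9% in Tuba1b and 46.7% in Tuba1c also occur in a transcript of another gene, pseudogenes included. The share was 27.9% in Tubb2a, 20.1% in Tubb2b and 16.8% in Tubb4b, and no such window was found in Tuba4a, Tubb3, Tubb5 or Tubb6. How the authors' counting treated reads that fit several genes is not given in the sources used here, so the split among Tuba1a, Tuba1b and Tuba1c, and between Tubb2a and Tubb2b, is uncertain. Tubb5 is listed 3 times, and only its first entry was used. The further entries held between 73.1% and 77.8% as many reads as the first. Their counts equalled each other in every sample except C2C12 control replicate 1, with 17013 and 17012. Whether reads that fit several isotypes were counted at more than 1 of them, which would bear on the shares and totals below, was not tested. Tuba1b overlaps Gm41396, Tuba4a overlaps Stk16 and A630095N17Rik, and Tubb4b overlaps Fam166a in the annotation.

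**Figure D1:**
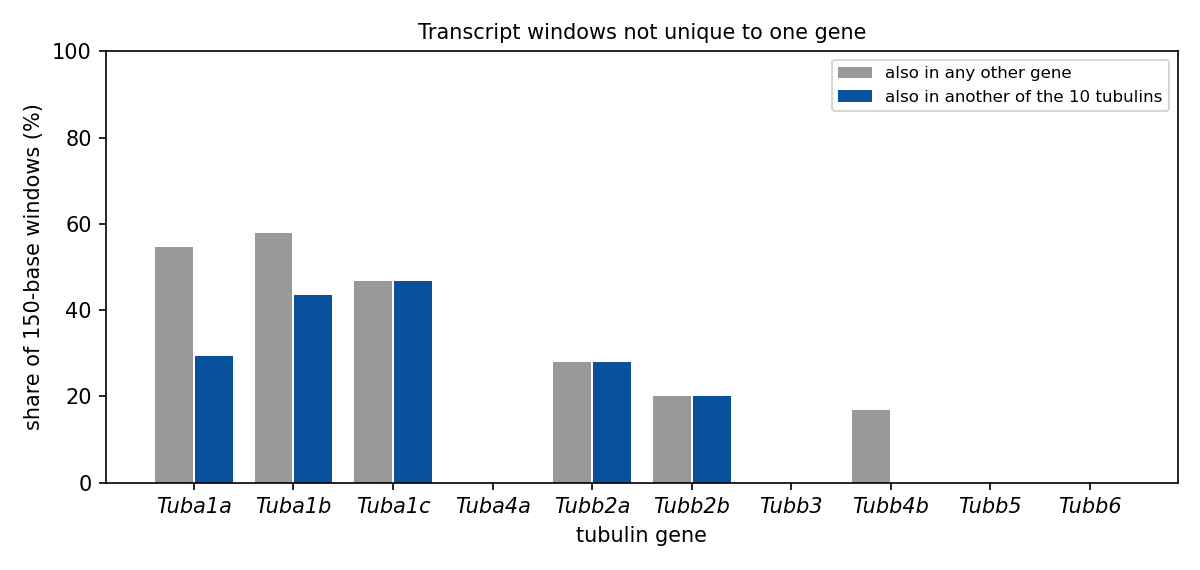
Share of 150-base windows (vertical axis, %) of each tubulin transcript (horizontal axis) that also occur in the transcripts of any other gene (grey) or of another of the 10 tubulins (blue). The 3 Tuba1 genes stand highest, at 46.7% to 57.9%, and Tuba4a, Tubb3, Tubb5 and Tubb6 are at 0.

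Between 20898611 and 27223414 reads were counted per sample. Septin9 fell in both cell types, from 413 and 437 CPM (counts scaled to a common library size with TMM factors) to 147 and 186 in C2C12, and from 368 and 480 to 204 and 159 in primary myoblasts. The log2 fold changes were -1.36 (SE 0.08, adjusted p = 5.1e-09) and -1.21 (SE 0.15, adjusted p = 0.00013) in edgeR's quasi-likelihood test. All 5 myoblast markers were at or above 1 CPM in every group. Muscle differentiation markers summed to between 99.7 and 221 CPM in C2C12 samples. In the primary cultures, which were labelled as proliferating, the sums differed widely between replicates. They were 2969 CPM in the lower and 10562 CPM in the higher control, and 6782 and 12597 CPM in the depleted samples. Of the macrophage markers none reached 1 CPM in both replicates of a group, endothelial markers summed to at most 4.12 CPM and Schwann cell markers to at most 2.38 CPM. Fibroblast markers summed to between 45.02 and 84.5 CPM in C2C12 samples. In primary myoblasts they summed to 8.37 and 8.28 CPM in the control and depleted samples of pair 1 and to 55.7 and 64.6 CPM in those of pair 2.

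Tubulin mRNA made up between 0.428% and 0.739% of all counted reads. In C2C12 controls the 10 genes held 0.641% and 0.475% of counted reads, and after Septin9 siRNA 0.584% and 0.428%. The pairs differed by -8.90% and -9.85%, while replicates 1 and 2 of the controls lay further apart than either pair. In primary myoblasts the genes held 0.737% and 0.630% in controls and 0.739% and 0.619% after Septin9 siRNA, so the pairs went in opposite directions, by 0.278% and -1.85%. Over the 4 pairs the exact sign-flip permutation test gave p = 0.25 (two-sided), and with 4 pairs it cannot go below 0.125. On library sizes scaled by TMM the primary myoblast log2 ratio changed from -0.011 to 0.0099.

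Alpha-tubulin genes held the larger part of these reads in every sample. Their share was 67.1% and 61.8% in C2C12 controls and 65.3% and 58.6% after Septin9 siRNA. In primary myoblasts it was 64.1% and 61.7% in controls and 66.6% and 63.7% after Septin9 siRNA. The alpha share thus differed by -1.86 and -3.23 percentage points in the C2C12 pairs and by 2.47 and 2.04 points in the primary myoblast pairs, and the exact sign-flip permutation test over the 4 pairs gave p = 1.0. That test pools pairs that went opposite ways in C2C12 and primary myoblasts, so it does not address a change within either. Both pairs of a cell type went the same way, while the ranges of its depleted and control samples overlapped.

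**Figure D2:**
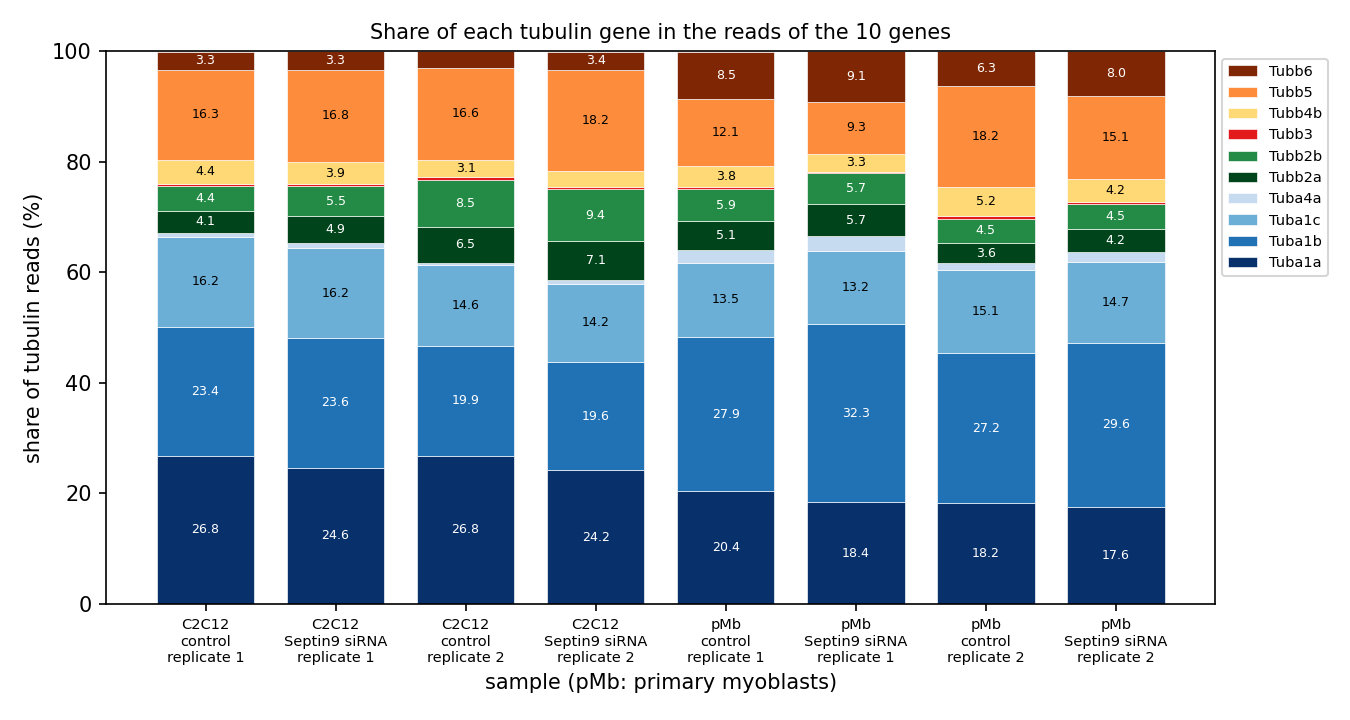
Share of each tubulin gene (vertical axis, % of the reads of the 10 genes) in each of the 8 samples (horizontal axis), with control and Septin9 siRNA samples of a pair side by side. Tuba1a is near 27% in both C2C12 controls and below 21% in all primary myoblast samples, where Tuba1b and Tubb6 take larger shares.

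The isotypes were first ordered by level within the control cells, as CPM per kilobase of exon. In C2C12 controls Tuba1a was at 930 and 701 and Tuba1b at 838 and 538 CPM per kilobase, and these ranges overlapped. Tuba1c (510 and 347) and Tubb5 (384 and 296) followed, again with overlapping ranges. Tubb2a, Tubb2b, Tubb4b and Tubb6 lay between 79.5 and 189 CPM per kilobase, each overlapping its neighbour. Tubb3 (14.3 and 13.4) and Tuba4a (16.2 and 8.59) were lowest and not separable from each other.

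In primary myoblast controls Tuba1b led with 1184 and 1010 CPM per kilobase, above Tuba1a (837 and 652) in both samples. Tuba1c stood at 504 and 493, and Tubb5 at 339 and 445. Tubb6 came next, at 360 and 233 CPM per kilobase, overlapping Tubb5. Tubb4b, Tubb2a and Tubb2b lay between 133 and 234 CPM per kilobase, each overlapping its neighbour. Tuba4a (62.0 and 27.2) lay above Tubb3 (16.9 and 18.3) in both samples.

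**Figure D3:**
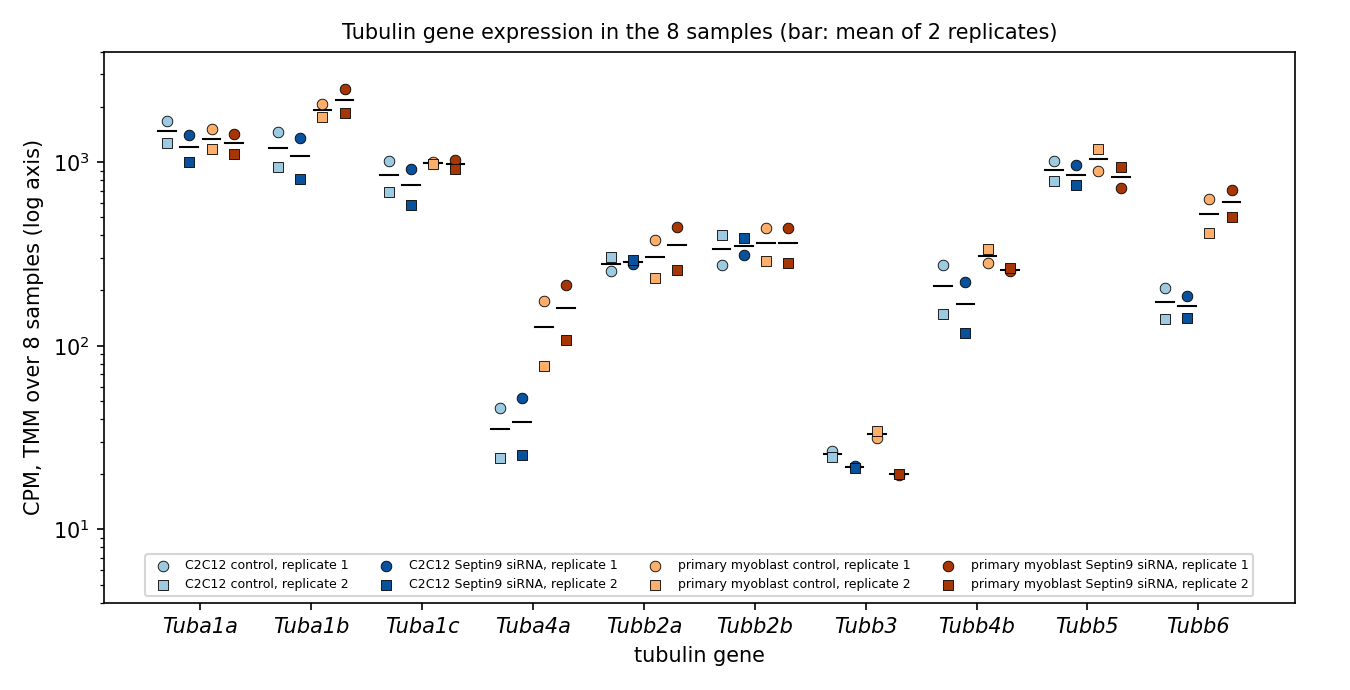
CPM of each tubulin gene on a log axis (vertical) for the 10 genes (horizontal), with control and Septin9 siRNA samples of C2C12 cells in light and dark blue and of primary myoblasts in light and dark orange; circles are replicate 1, squares replicate 2 and bars the mean of 2. Tuba4a and Tubb6 sit higher in all primary myoblast samples than in any C2C12 sample, and Tubb3 is lowest in primary myoblasts after Septin9 siRNA.

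Tubb6 and Tuba4a were higher in control primary myoblasts than in control C2C12 cells. Tubb6, a beta isotype found in many tissues and linked to microtubule organization in regenerating muscle, was at 207 and 140 CPM in C2C12 controls and 633 and 409 CPM in primary controls. The groups did not overlap, with a log2 fold change of 1.62 (SE 0.32, adjusted p = 0.0211). With 2 samples against 2 an exact permutation test cannot go below 0.333, so lack of overlap alone is weak here and below. How many of all genes showed no overlap was not computed. Tuba4a, the alpha isotype whose gene encodes no terminal tyrosine, was at 46.0 and 24.4 CPM against 176 and 77.2 CPM, a log2 fold change of 1.88 (SE 0.52, adjusted p = 0.0472). These were 2 of 10 isotypes, where 34.5% of the 17103 genes tested passed in this comparison, and 18.3% passed with a higher level in primary myoblasts. Of all genes tested 33.3% passed with at least a 1.5-fold difference. Cell type, differentiation stage, medium and time after transfection cannot be told apart here, nor can fewer cells of a type be told from less RNA per cell in bulk RNA.

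Tuba1b was at 1460 and 938 CPM in C2C12 controls and 2064 and 1760 CPM in primary controls, with a log2 fold change of 0.70 (SE 0.26) that did not pass (adjusted p = 0.0988), whereas DESeq2 called it at an adjusted p of 0.0443. The remaining isotypes had log2 fold changes between -0.10 for Tuba1a and 0.57 for Tubb4b, with adjusted p of 0.107 or more. Both calls were lost without either C2C12 control, and the number of genes called over the whole table then went from 5901 to 1556 without replicate 1 and 512 without replicate 2. It was 3810 without primary myoblast replicate 1. Tubb6 then had an adjusted p of 0.0699 without replicate 1 and 0.124 without replicate 2, and Tuba4a 0.105 and 0.216. Tuba4a was also lost without primary myoblast replicate 1, at an adjusted p of 0.115. On simulated counts with the spread of these 4 controls, the test found few planted 2-fold changes, and false calls were more frequent than the threshold allows.

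After Septin9 siRNA, 2 of the 10 isotypes fell in C2C12 cells, the alpha gene Tuba1a and the beta gene Tubb4b, and none rose. In this comparison 6.75% of 15814 genes passed at an adjusted p under 0.05, 4.12% with a lower and 2.64% with a higher level. The median log2 fold change was -0.12 over the 10 isotypes and -0.00079 over all genes tested. Neither isotype reached the study's 1.5-fold threshold, which 1.57% of genes passed, 0.740% with a lower level.

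Tuba1a, the main alpha isotype of developing neurons, is also abundant in myogenic cells. It was at 1677 and 1265 CPM in C2C12 controls and at 1402 and 999 CPM after Septin9 siRNA. It was lower within both pairs, although replicates of a group lay further apart than the pairs. The log2 fold change was -0.30 (SE 0.08, adjusted p = 0.0257), and the level fell by 18.9%. Its share of tubulin reads went from 26.8% in both controls to 24.6% and 24.2%, and here the groups did not overlap.

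The other alpha isotypes did not pass. Tuba1b was at 1460 and 938 CPM in C2C12 controls and 1345 and 809 after Septin9 siRNA (log2 fold change -0.17, adjusted p = 0.25). Tuba1c had 1012 and 687 CPM in controls and 922 and 586 after Septin9 siRNA (log2 fold change -0.18, adjusted p = 0.173). Tuba4a had 46.0 and 24.4 CPM in controls and 51.7 and 25.5 after Septin9 siRNA (log2 fold change 0.12, adjusted p = 0.459).

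Tubb4b, a widely expressed beta isotype, was at 275 and 148 CPM in C2C12 controls and at 221 and 117 CPM after Septin9 siRNA. It was lower by a like amount in both pairs, with log2 ratios of -0.31 and -0.34, while the groups overlapped. The log2 fold change was -0.33 (SE 0.07, adjusted p = 0.00388). Of the other beta isotypes, Tubb3 came nearest, with 26.7 and 24.9 CPM in controls and 22.1 and 21.5 after Septin9 siRNA. Its groups did not overlap, but the change did not pass (log2 fold change -0.24, adjusted p = 0.106). Tubb2a, Tubb2b, Tubb5 and Tubb6 had log2 fold changes between -0.08 and 0.06.

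Both C2C12 calls rest on the paired fit of the C2C12 samples alone, where they held with other scalings, other filters and DESeq2. Without the replicate block neither passed (adjusted p = 1 for both), and no gene of the table did. With all 8 samples in one fit the adjusted p was 0.282 for Tuba1a and 0.158 for Tubb4b. Leaving out the first pair in that fit gave an adjusted p of 1 for both, and leaving out the second gave 0.998 for Tuba1a and 0.83 for Tubb4b.

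In primary myoblasts 1 of the 10 isotypes passed, the beta gene Tubb3, which fell. Here 4.99% of 17117 genes passed, 1.04% with a lower and 3.95% with a higher level. At least a 1.5-fold change was called for 3.17% of genes, 2.87% higher and 0.298% lower, and Tubb3 was among the lower. The median log2 fold change was -0.0063 over the 10 isotypes and 0.01 over all genes tested.

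Tubb3, best known as the neuronal beta isotype, was at 31.7 and 34.2 CPM in control primary myoblasts and at 19.9 and 20.1 CPM after Septin9 siRNA. In raw counts these were 753 and 908 reads against 453 and 420. The groups did not overlap, and the gap between them was larger than that between replicates. The log2 fold change was -0.71 (SE 0.12, adjusted p = 0.00154), and the level fell by 38.9%. Its share of tubulin reads went from 0.428% and 0.529% to 0.256% and 0.321%.

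Tubb3 was lower in both pairs, with log2 ratios of -0.67 and -0.77. A fit without either pair keeps 1 primary sample per arm and takes its spread from C2C12, so it cannot test the call. The call was lost without the replicate block (adjusted p = 1), where no gene passed. Of the neuron markers, Elavl4, Rbfox3, Snap25 and Syt1 had at most 10 reads in any sample, while Nefl was at 7.69 and 9.05 CPM in primary myoblast controls and at 4.25 and 6.65 CPM after Septin9 siRNA (log2 fold change -0.63, adjusted p = 0.0691). The 5 neuron markers summed to between 7.90 and 9.81 CPM in those controls and between 4.30 and 6.99 CPM after Septin9 siRNA. Among the other markers in primary myoblasts, the fibroblast marker Thy1 rose (log2 fold change 0.80, adjusted p = 0.0431), from 0.505 and 8.67 CPM to 0.964 and 14.4 CPM. Of the 5 myoblast markers, Myf5 and Pax7 fell (log2 fold changes -0.78 and -0.44, adjusted p = 0.0068 and 0.0221). Des rose (log2 fold change 0.57, adjusted p = 0.0409), and Myod1 and Cdh15 did not pass. The part of these markers in the result was not tested.

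Among the alpha isotypes of primary myoblasts, Tuba4a came nearest to passing. It was at 176 and 77.2 CPM in controls and at 214 and 108 CPM after Septin9 siRNA, higher within both pairs. The log2 fold change was 0.39 (SE 0.11) with an adjusted p of 0.0582. It passed in some alternatives that kept both pairs, among them 0.0228 without the filter on low counts. It did not pass in others, among them the fit without the replicate block and DESeq2, at 0.253. Tuba1b was at 2064 and 1760 CPM in controls and 2506 and 1856 after Septin9 siRNA (log2 fold change 0.19, SE 0.15, adjusted p = 0.611). Its share of tubulin reads was 27.9% and 27.2% in controls and 32.3% and 29.6% after Septin9 siRNA, without overlap. Tuba1a and Tuba1c had log2 fold changes of -0.08 and -0.02.

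Tubb5, the beta gene with the most reads, was at 898 and 1180 CPM in primary myoblast controls and 725 and 944 CPM after Septin9 siRNA. It was lower in both pairs by near the same amount, with log2 ratios of -0.31 and -0.32, but did not pass (adjusted p = 0.269). With DESeq2 on the authors' batch-corrected counts it passed, at an adjusted p of 0.00399. That fit had no replicate block on counts already adjusted for batch, so it can understate the spread. Tubb4b was at 281 and 335 CPM against 255 and 265 CPM (log2 fold change -0.23, adjusted p = 0.356), and its groups did not overlap. Tubb6 was at 633 and 409 CPM against 709 and 500 CPM (log2 fold change 0.24, adjusted p = 0.399). Tubb2a and Tubb2b had log2 fold changes of 0.21 and 0.0027. In the second pair the log2 ratios were 0.48 for Tuba4a, -0.34 for Tubb4b and 0.29 for Tubb6, against 0.28, -0.14 and 0.16 in the first.

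**Figure D4:**
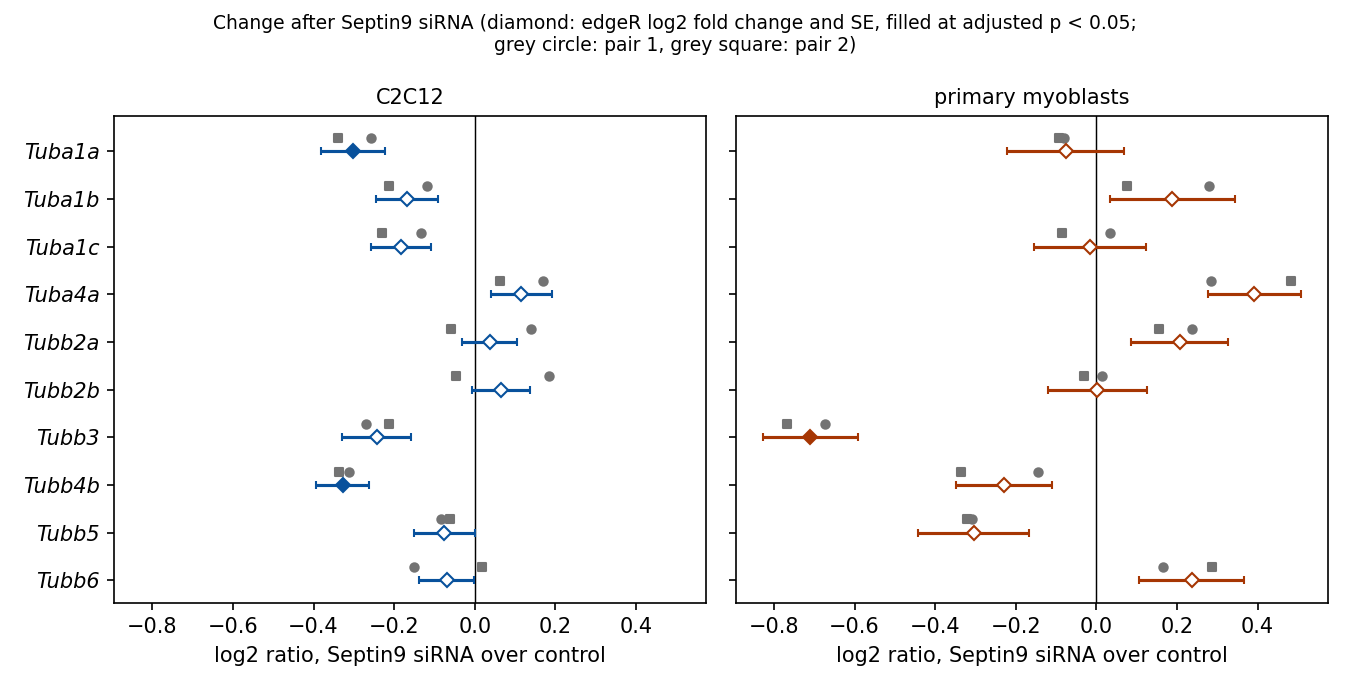
Log2 ratio of Septin9 siRNA over control (horizontal axis) for each tubulin gene (vertical axis) in C2C12 cells (left) and primary myoblasts (right); diamonds with bars are the edgeR estimate and SE, filled where the adjusted p was under 0.05, and grey circles and squares are replicate pairs 1 and 2. Filled diamonds mark Tuba1a and Tubb4b on the left and Tubb3 on the right.

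The difference between the cell types was tested as an interaction in a fit of all 8 samples, which shares its controls with the comparisons above. No gene of 17918 passed (0%), 1469 had an unadjusted p under 0.05, DESeq2 called 21, and 255 passed without the filter on low counts. Tubb3 differed most among the isotypes, its log2 fold change being lower in primary myoblasts by a difference of -0.47 (SE 0.13, unadjusted p = 0.0046, adjusted p = 0.371). That Tuba1a and Tubb4b passed in one cell type and Tubb3 in the other is therefore not shown to be a difference between them. Tubb3 passed without primary myoblast replicate 1, but that fit keeps 1 primary sample per arm and cannot test the difference.

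Within the tubulin pool, shares moved the same way in both pairs for 8 of 10 isotypes in C2C12 and 9 of 10 in primary myoblasts. In all 4 pairs the shares of Tuba1a, Tuba1c, Tubb3 and Tubb4b were lower and those of Tuba4a and Tubb2a higher. The mean differences were -1.86 percentage points for Tuba1a, -0.275 for Tuba1c, -0.107 for Tubb3, -0.57 for Tubb4b, 0.296 for Tuba4a and 0.659 for Tubb2a. Each gave p = 0.125 in the exact sign-flip permutation test over 4 pairs, the smallest it allows, and 0.208 after adjustment over the 10 isotypes. Shares sum to a whole, so they do not vary independently.

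Replicates of a group differed for some isotypes by more than the siRNA groups did. The share of Tubb5 was 12.1% and 18.2% in the 2 primary myoblast controls and 9.34% and 15.1% after Septin9 siRNA. The share of Tubb2b was 4.41% and 8.50% in the C2C12 controls and 5.50% and 9.39% after Septin9 siRNA.

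The other 6 alpha and beta tubulins, Tuba3a, Tuba3b, Tuba8, Tubal3, Tubb1 and Tubb4a, had between 2 and 12 reads in sum per sample and were not tested. Tubal3 had no read in any sample. Gamma-tubulin Tubg1, which nucleates microtubules, was at 50.9 and 49.1 CPM in primary myoblast controls and 43.1 and 40.0 after Septin9 siRNA (log2 fold change -0.26, adjusted p = 0.224). Tubg2, Tubd1 and Tube1 did not pass in either cell type either. Between the control cells Tubg2 was higher in primary myoblasts, at 2.52 and 2.26 CPM against 0.459 and 0.554 (log2 fold change 2.25, adjusted p = 0.0144).

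Genes that fold, modify and bind tubulin were read as lists, against 2.64% of all genes tested that rose and 4.12% that fell in C2C12, and 3.95% and 1.04% in primary myoblasts. None of the 8 genes of the gamma-tubulin ring complex, 14 of the CCT chaperonin and prefoldin, 6 of tubulin mRNA autoregulation or 3 of tubulin acetylation passed in either siRNA comparison. TTC5 itself (Ttc5) had log2 fold changes of 0.04 in C2C12 and -0.19 in primary myoblasts, with adjusted p of 0.844 and 0.47. Of 8 folding cofactor genes 1 rose in each cell type. In C2C12 this was Arl2, a small GTPase acting with the cofactors (28.6 and 23.8 CPM against 38.2 and 32.3, log2 fold change 0.43, adjusted p = 0.0021). In primary myoblasts it was Tbcc, the cofactor that releases folded dimers (17.4 and 20.4 CPM against 25.3 and 29.5, log2 fold change 0.55, adjusted p = 0.0116). Arl2 had a log2 fold change of 0.28 in primary myoblasts and Tbcc 0.06 in C2C12, and neither passed there. The difference between cell types did not pass for Arl2 or Tbcc.

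Of the 24 tail-modifying enzyme genes 17 were tested in primary myoblasts and 2 rose, none fell. Svbp, the partner of the vasohibins, went from 106 and 52.6 CPM to 165 and 82.8 CPM (log2 fold change 0.66, adjusted p = 0.00147). Vash2, a vasohibin that removes the terminal tyrosine of alpha-tubulin, went from 151 and 82.3 CPM to 197 and 126 CPM (log2 fold change 0.51, adjusted p = 0.0144). In C2C12 16 were tested and none passed. An unadjusted p under 0.05 was reached by 5 of them, not all in the same direction, and by 2962 of all 15814 genes tested. Svbp and Vash2 had log2 fold changes of 0.22 and 0.21 in C2C12, and the difference between cell types passed for neither.

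Of 18 microtubule-associated and plus-end protein genes 2 fell in C2C12. These were Mapre1, encoding the plus-end protein EB1 (229 and 198 CPM against 180 and 172, log2 fold change -0.28, adjusted p = 0.0168), and Map1a (log2 fold change -0.25, adjusted p = 0.048). In primary myoblasts Mapre3, encoding EB3, which takes part in myoblast elongation and fusion, rose from 59.5 and 30.6 CPM to 77.5 and 48.3 CPM (log2 fold change 0.52, adjusted p = 0.0115). Of the destabilizing and severing proteins Stmn2 fell in C2C12, from 78.4 and 73.1 CPM to 56.5 and 54.7 CPM (log2 fold change -0.45, adjusted p = 0.00044). None of these genes passed in the other cell type. Log2 fold changes there were -0.15 for Mapre1, 0.02 for Map1a and -0.60 for Stmn2 in primary myoblasts, and 0.20 for Mapre3 in C2C12. The difference between cell types passed for none of them.

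Some markers of growth and differentiation changed with the siRNA. Of 6 proliferation markers 4 fell in C2C12, Mki67 most (log2 fold change -0.50, adjusted p = 0.00017), while Pcna and Mcm2 had log2 fold changes of 0.04 and 0.03. In primary myoblasts 1 of the 6 fell, Ccnb1 (log2 fold change -0.43, adjusted p = 0.0258), and the other 5 had negative log2 fold changes that did not pass. Of 6 muscle differentiation markers 3 rose in C2C12, among them Myog (log2 fold change 1.03), and 5 rose in primary myoblasts, among them Ckm (log2 fold change 1.14). Acta1, the member with a negative log2 fold change in both, was at -0.40 in C2C12 (adjusted p = 0.0841) and -0.06 in primary myoblasts (adjusted p = 0.914). Of 5 myoblast markers 3 rose in C2C12 and none fell. These were Myod1, Des and Cdh15, with log2 fold changes of 0.54, 0.49 and 0.38. The part of these shifts in the tubulin changes was not tested.

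The genes whose pattern was most like that of the summed isotypes over the 8 samples, centred within each cell type, were Cul2 (Pearson r = 0.993), Nsdhl (r = 0.988) and Idi1 (r = 0.987), of 15063 genes. Cul2 encodes a ubiquitin ligase scaffold, and Nsdhl and Idi1 are enzymes of sterol synthesis. The samples share libraries and replicate pairs, so these are descriptions.

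The promoter was examined as the 250 bases before the start in RefSeq on GRCm38.p6, and was read for 8 of the 10 isotypes, without Tubb2b and Tubb6. The CCAAT box, searched as CCAAT on both strands, was found in Tuba1a, Tuba1c, Tubb3, Tubb4b and Tubb5, and 33.8% of all 32851 promoters of this length hold it. Tubb4b held 5 copies, the most among the 8 isotypes read, Tubb5 held 2, and Tuba1b, Tuba4a and Tubb2a none. A match describes the letters in this window. By the GENCODE gene spans the Tuba4a window lies wholly within the gene. Those of Tuba1a, Tuba1b, Tubb3 and, by a few bases, Tubb5 lie partly within theirs, while the Tubb4b window lies outside. The Tubb4b sequence is shown because it holds the most copies among those read, each in capitals.
Tubb4b (chr2:25224703-25224952, minus strand): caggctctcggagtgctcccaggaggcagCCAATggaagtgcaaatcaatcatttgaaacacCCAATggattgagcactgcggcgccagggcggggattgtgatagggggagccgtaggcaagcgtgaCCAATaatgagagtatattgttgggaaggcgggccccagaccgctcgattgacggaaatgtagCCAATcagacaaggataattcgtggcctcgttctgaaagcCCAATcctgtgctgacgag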

How the data were processed

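RNA-seq counts of the 8 samples were analysed. For the authors' table, paired-end reads were aligned by STAR 2.7.2 (build GRCm38.p6), assigned to genes by featureCounts 2.0.1, and raw counts were deposited. They also deposited, per cell type, a normalized signal: counts adjusted for batch with ComBat-Seq and divided by DESeq2 size factors, used here only as an alternative after whole counts were recovered from it (100% of values whole within 0.001). The methods name Gencode, while the gene names are RefSeq symbols. From the raw counts, 16 broken lines were left out.

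Samples were grouped by their labels. In R 4.3.3, edgeR 4.0.16 kept genes with filterByExpr, scaled by TMM and ran its quasi-likelihood test. Replicate entered as a block within a cell type, since the study states 2 independent experiments. Deviations of same-numbered samples correlated at 0.553 in C2C12 and 0.791 in primary myoblasts. The control comparison used no block. P-values were adjusted by Benjamini-Hochberg over all genes tested and called under 0.05; SE here is the absolute log2 fold change over the square root of F. Shares are reads of a gene over the reads of the 10 genes. Depth was 20898611 to 27223414 counted reads per sample, and precision rests on 2 replicates per group. Alternatives covered scaling, filters, DESeq2 1.42.0, the block, the samples fitted and each left-out replicate.

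Named genes were the 10 isotypes, Septin9, other tubulins, up to 4 called genes of each list per cell type with the largest change, and the 3 genes most correlated with the summed isotypes; from lists with more, some are given as counts. Ttc5, the neuron markers, Pcna, Mcm2 and Acta1 were named outside this rule, after their values were seen. The isotypes and lists were chosen with earlier results of these data known. Scripts were tested on simulated data, where the test calls were near their nominal rate for unchanged genes but the control comparison found few 2-fold changes. The coding ends of some isotypes are not reported here.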

Additional observations from a re-analysis of the deposited data

Results flagged for a closer look

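The level and the share of each of the 10 isotypes, and the alpha share, were scanned for opposite directions in the 2 cell types. In 3 of these measures every pair of one cell type moved one way and every pair of the other moved the opposite way. With 2 pairs per cell type some measures would do so by chance, and how many was not computed. For Tuba1b the log2 ratio of Septin9 siRNA over control was -0.12 and -0.21 in C2C12 and 0.28 and 0.08 in primary myoblasts, a difference of means of 0.34. The interaction term of the edgeR fit gave 0.35 (SE 0.15, adjusted p = 0.606), so the difference did not pass. For Tubb5 the share of tubulin reads was 0.543 and 1.56 percentage points higher in the C2C12 pairs and -2.78 and -3.15 points in the primary myoblast pairs, a difference of -4.02 points. The interaction on its level was -0.24 (adjusted p = 0.7), and the difference in share itself was not tested. The alpha share differed by -1.86 and -3.23 points in C2C12 and 2.47 and 2.04 points in primary myoblasts, a difference of 4.798 points, which was not tested either.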

How the results depend on the processing

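Of the 10 isotypes, 2 passed in C2C12. The count was 0 with a 1.5-fold minimum, 0 with no replicate block, 0 with all 8 samples in one fit and 4 with DESeq2 on batch-corrected counts (Tuba1a, Tuba1b, Tuba1c and Tubb4b). The last had no block on counts already adjusted for batch and can understate the spread. For Tuba1a in C2C12 its SE was 0.048, against 0.076 with DESeq2 and the block. Leaving out a pair gave 0 to 0. In primary myoblasts 1 passed. The count was 2 with no filter, 2 with at least 10 counts in every sample, 2 with all 8 samples in one fit, 3 with DESeq2 on batch-corrected counts (Tuba4a, Tubb3 and Tubb5), 0 with no replicate block and 1 to 4 without a pair. For the difference between cell types it was 0, and 0 to 1 without a pair. Between control cells 2 passed, 1 with library size alone, 1 with at least 10 counts in every sample, 3 with DESeq2 (Tuba1b, Tuba4a and Tubb6) and 0 to 2 without a control. There the replicate block gave 2, and pairing replicate 1 of one cell type with replicate 2 of the other, an alternative chosen after seeing that same-numbered controls correlated at -0.133, also gave 2, with 6645 genes called against 4326 with the same numbers paired and 5901 unpaired.

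Over all genes, calls in C2C12 numbered 1068, but 283 with DESeq2, 111 with all 8 samples in one fit, 0 with no replicate block, 98 without replicate 1 and 181 without replicate 2. In primary myoblasts they numbered 854, but 295 with RLE size factors, 236 with library size alone, 256 with DESeq2 and 0 with no replicate block, and 1256 with no filter, 2020 without replicate 1 and 1277 without replicate 2. For the difference between cell types 51 to 844 genes passed without a pair. Higher genes made up 39% of the C2C12 calls and 51.1% with library size alone. The log2 ratio of total tubulin in C2C12 was -0.14, and -0.16 with both TMM and RLE scaling (-0.15 to -0.13 without a pair). In primary myoblasts it was -0.011 and 0.024 with RLE scaling.

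Of 410 alternative log2 fold changes 15 changed sign, all of isotypes that did not pass. In C2C12, leaving out a pair gave -0.0595 to 0.146 for Tubb2a, -0.0489 to 0.192 for Tubb2b and, for Tubb6 without replicate 1, 0.0171. In primary myoblasts Tubb2b was -0.0291 with library size alone, -0.00025 with all 8 samples in one fit, -0.0083 with DESeq2 on batch-corrected counts and -0.0075 to 0.0105 without a pair, and Tuba1c was -0.0622 to 0.0291 without a pair. For the difference between cell types Tubb2b was -0.193 to 0.0478 without a pair. Between control cells, leaving out a control gave -0.351 to 0.0949 for Tuba1a, -0.0211 to 0.53 for Tuba1c, -0.28 to 0.467 for Tubb2a and -0.24 to 0.412 for Tubb2b. The cause was not tested.

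With 2 samples per group, the fits that leave out a pair keep 1 sample in an arm and assume that it varies like the other groups. They were fitted over both cell types together, where neither C2C12 call held even with all 8 samples included. Depth of 20898611 to 27223414 counted reads put Tubb3 at 420 to 908 reads per sample. How far reads shared among Tuba1a, Tuba1b and Tuba1c move their values was not tested.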
